A study of Mus musculus with 36 samples.

Results

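Xdh, AW112010, Tnfsf10 and Trim21 are 4 of the 18193 genes that a single-symbol probe set covered on these arrays. They were read from 7 of 45101 probe sets, namely 1 for Xdh, 1 for AW112010, 3 for Tnfsf10 and 2 for Trim21, each annotated to that gene alone. The genes had been chosen from these same data for higher values in modafinil mice than in vehicle mice and for values that followed the interferon-induced gene Gbp2 over the modafinil arrays. Their treatment differences and their relation to Gbp2 over modafinil arrays are therefore given as descriptions, without a test. Comparisons that the choice did not use are tested.

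Interferons are cytokines that bind cell surface receptors, activate Janus kinases and STAT transcription factors, and switch on a large set of defence genes. In the brain, microglia and the endothelial cells of vessels are known to respond to them. Xdh encodes xanthine dehydrogenase, which oxidises hypoxanthine to xanthine and xanthine to uric acid and is abundant in capillary endothelium. AW112010 is a mouse transcript that RefSeq lists as a long non-coding RNA and that is known from activated immune cells. Tnfsf10 encodes TRAIL, a ligand of the tumour necrosis factor family that binds a death receptor on target cells. Trim21 encodes a ubiquitin ligase that also binds antibodies in the cytosol and is the Ro52 autoantigen. Gbp2 encodes a guanylate-binding protein, a GTPase of cell-autonomous defence.

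RNA was measured on 36 single-colour Affymetrix mouse genome arrays from male C57B1/6J mice that had been trained in conditioned place preference, where a drug is paired with 1 compartment of a box. Modafinil mice received modafinil, a wakefulness-promoting blocker of the dopamine transporter, at 65 mg/kg on alternate days from day 3 to day 10 and saline on the days between, and vehicle mice received saline throughout. The final test fell on day 11, and 24 h after the last injection tissue was punched from 5 modafinil and 5 vehicle samples of ventral tegmental area (VTA), 5 and 5 of nucleus accumbens (NAC), and 8 and 8 of prefrontal cortex (PFC). Values are log2 expression values, so a difference of 1 is a doubling, and since the labels do not say that each array came from a separate mouse, a p-value reflects the spread among arrays alone. Some NAC and PFC samples injected with modafinil are also called control mice in their labels, and they were grouped by the injection.

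The median value of an array was near 6.78 in modafinil VTA, 6.86 in modafinil NAC and 7.24 in modafinil PFC, so levels were tested between NAC and VTA only, and ranges that take in PFC arrays are on the values as deposited, with that offset in them. Dopamine neuron markers averaged 7.59 to 9.06 in modafinil VTA arrays and 8.51 to 10.28 in vehicle VTA arrays, against 6.45 to 7.15 in all other arrays. Striatal markers averaged 10.59 or more in each of the 10 NAC arrays, and cortical markers 9.79 to 10.24 over the 16 PFC arrays. Modafinil PFC array 3 stood apart, with a striatal marker level of 10.90 where the other 7 modafinil PFC arrays had 8.67 to 9.13 and the vehicle PFC arrays 8.72 to 9.07. Arrays of a group correlated with each other at 0.987 to 0.996 on average, and no 2 arrays were identical.

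Promoter windows of the members and of Gbp2 are shown because 4 genes that were picked for moving with an interferon-induced gene raise the question of which letters precede them. Windows run from 250 bases before to 50 bases after the gene's start, on the gene's own strand, 5′ to 3′, from RefSeq's GRCm38.p6 tables, which held 3 of the 4 members. Capitals mark matches to the core of the interferon-stimulated response element (GAAA, any 2 bases, GAAA), searched on both strands. Trim21 lies on chr7:102565433-102565732 (minus strand), AW112010 on chr19:11050517-11050816 (minus strand), Tnfsf10 on chr3:27316827-27317126 (plus strand) and Gbp2 on chr3:142620413-142620712 (plus strand).
Trim21: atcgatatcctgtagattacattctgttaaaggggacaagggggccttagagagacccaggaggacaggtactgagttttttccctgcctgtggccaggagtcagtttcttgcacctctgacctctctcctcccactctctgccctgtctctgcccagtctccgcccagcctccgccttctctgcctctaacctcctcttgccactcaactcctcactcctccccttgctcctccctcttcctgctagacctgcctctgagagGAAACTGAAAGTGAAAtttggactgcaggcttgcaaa
AW112010: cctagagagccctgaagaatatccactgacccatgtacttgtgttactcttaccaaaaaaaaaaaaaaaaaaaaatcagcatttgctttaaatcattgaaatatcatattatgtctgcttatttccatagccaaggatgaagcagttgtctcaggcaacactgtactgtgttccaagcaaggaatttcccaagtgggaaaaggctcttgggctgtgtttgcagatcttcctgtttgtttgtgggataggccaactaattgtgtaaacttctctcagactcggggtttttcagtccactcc
Tnfsf10: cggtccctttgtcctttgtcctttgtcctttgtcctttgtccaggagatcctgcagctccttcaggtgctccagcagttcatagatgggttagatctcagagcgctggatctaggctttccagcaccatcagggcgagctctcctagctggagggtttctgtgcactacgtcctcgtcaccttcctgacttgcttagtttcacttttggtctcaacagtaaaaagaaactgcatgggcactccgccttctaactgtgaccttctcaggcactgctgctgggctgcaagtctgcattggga
Gbp2: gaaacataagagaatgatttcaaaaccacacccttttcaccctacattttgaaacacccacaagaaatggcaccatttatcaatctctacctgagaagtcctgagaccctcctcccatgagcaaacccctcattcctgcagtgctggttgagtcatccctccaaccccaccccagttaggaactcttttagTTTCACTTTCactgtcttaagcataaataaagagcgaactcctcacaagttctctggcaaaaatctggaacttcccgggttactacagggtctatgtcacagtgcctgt

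The Trim21 window held 2 overlapping matches, GAAACTGAAA and GAAAGTGAAA, which began 13 and 19 bases after the gene's start. The Gbp2 window held 1 match, on the other strand, 59 bases before its start, and printed here as TTTCACTTTC. The AW112010 and Tnfsf10 windows held none. A match was present in 3.44% of the 32851 windows in the table. Of the interferon-induced genes described further on, 15 of 25 (60%) had a match. TTCNNNGAA, the palindrome bound by STAT dimers, was in none of these 4 windows, against 8.3% of all windows and 7 of 25 (28%) of the interferon-induced genes. A gene was counted if any of its windows held a match, so the shares per window and per gene differ in unit. A match is only a run of letters, and its absence applies to these 300 bases alone.

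Xdh, a 66503-base gene on chromosome 17 (73883895 to 73950397), was higher in modafinil than in vehicle arrays in all 3 regions. In VTA it read 8.78, 8.17, 7.01, 8.32 and 8.59 in modafinil arrays 1 to 5, against 6.86, 7.06, 7.33, 6.46 and 6.97 in vehicle arrays 1 to 5. All modafinil VTA arrays but array 3 lay above the highest vehicle array. In NAC the values were 7.90, 7.97, 6.78, 6.04 and 8.07 in modafinil arrays, against 6.37, 6.35, 6.40, 6.06 and 6.48 in vehicle arrays. Here 4 of 5 modafinil arrays lay above every vehicle array, while modafinil array 4 lay below all of them. In PFC the modafinil arrays ranged from 6.61 to 8.68 around a median of 8.09, against 6.31 to 6.99 around a median of 6.54 in vehicle arrays. Modafinil PFC arrays 3 and 6 fell inside the vehicle range and the other 6 above it. The mean difference was 1.24 in VTA (SE 0.34, 2.36-fold), 1.02 in NAC (SE 0.41, 2.02-fold) and 1.26 in PFC (SE 0.30, 2.39-fold).

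AW112010, a 2955-base gene on chromosome 19 (11047612 to 11050566), was low in most of the same modafinil arrays as Xdh. Its VTA values were 9.0, 8.84, 7.38, 8.97 and 8.80 in modafinil mice, against 7.27, 7.72, 7.41, 7.13 and 7.33 in vehicle mice. Array 3 again stood alone at the vehicle level. NAC values were 8.95, 8.44, 7.03, 6.88 and 8.82 in modafinil mice, against 6.87, 7.16, 7.12, 7.21 and 7.10 in vehicle mice, and modafinil arrays 3 and 4 lay within the vehicle range. In PFC the modafinil arrays ranged from 7.53 to 9.36 (median 8.90), against 7.28 to 7.63 (median 7.42) in vehicle arrays. Only modafinil array 6 of the 8 lay below the highest vehicle array there. The mean difference was 1.22 in VTA (SE 0.32, 2.34-fold), 0.93 in NAC (SE 0.45, 1.91-fold) and 1.29 in PFC (SE 0.22, 2.45-fold).

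Tnfsf10, a 22589-base gene on chromosome 3 (27317077 to 27339665), has 3 probe sets, and the one with the highest mean is taken first. In VTA it read 7.74, 7.34, 5.98, 7.67 and 8.13 in modafinil arrays, against 6.20, 6.15, 5.89, 6.19 and 6.10 in vehicle arrays. In NAC it read 7.65, 7.13, 6.26, 5.75 and 7.68 in modafinil arrays, against 5.80, 6.25, 6.06, 6.14 and 5.85 in vehicle arrays. The low modafinil arrays were array 3 in VTA and arrays 3 and 4 in NAC, as for AW112010, with array 4 below all vehicle NAC arrays. PFC values ran from 6.64 to 8.14 (median 7.63) in modafinil arrays, against 6.21 to 6.77 (median 6.47) in vehicle arrays, with arrays 3 and 6 inside the vehicle range. The mean difference was 1.27 in VTA (SE 0.37, 2.41-fold), 0.87 in NAC (SE 0.39, 1.83-fold) and 1.03 in PFC (SE 0.22, 2.04-fold).

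The other Tnfsf10 probe sets gave the same sign with different sizes. The second brightest differed by 1.16 in VTA (SE 0.41), 0.87 in NAC (SE 0.40) and 0.85 in PFC (SE 0.22), close to the first. The third differed by 0.28 in VTA (SE 0.090), 0.29 in NAC (SE 0.13) and 0.24 in PFC (SE 0.11). That probe set was dim, at a median percentile of 23.6 to 30.3 within the arrays of each group, and did not pass the brightness filter described under the tests.

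Trim21, a 7563-base gene on chromosome 7 (102557920 to 102565482), did not follow the other 3 genes, and in VTA its values did not accord with the description of it as raised. In VTA it read 7.46, 7.42, 6.94, 7.42 and 7.15 in modafinil arrays, against 7.39, 7.28, 6.99, 7.52 and 7.03 in vehicle arrays, a difference of 0.04 (SE 0.14, 1.03-fold). The highest VTA value was that of a vehicle array. In NAC it read 7.31, 7.27, 6.95, 6.62 and 7.06 in modafinil arrays, against 6.88, 6.92, 6.87, 6.93 and 6.72 in vehicle arrays, a difference of 0.18 (SE 0.13, 1.13-fold). Modafinil NAC array 4 was the lowest of the 10, and the other 4 lay above all vehicle arrays. In PFC the values ran from 7.48 to 8.04 (median 7.73) in modafinil arrays, against 7.08 to 7.43 (median 7.29) in vehicle arrays, a difference of 0.48 (SE 0.081, 1.39-fold). The PFC groups did not overlap, so that arrays 3 and 6, at the vehicle level for Xdh and Tnfsf10, were above it for Trim21. Its other, dimmer probe set gave −0.04 in VTA (SE 0.11), 0.11 in NAC (SE 0.14) and 0.21 in PFC (SE 0.091), with overlapping groups in every region.

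**Figure D1:**
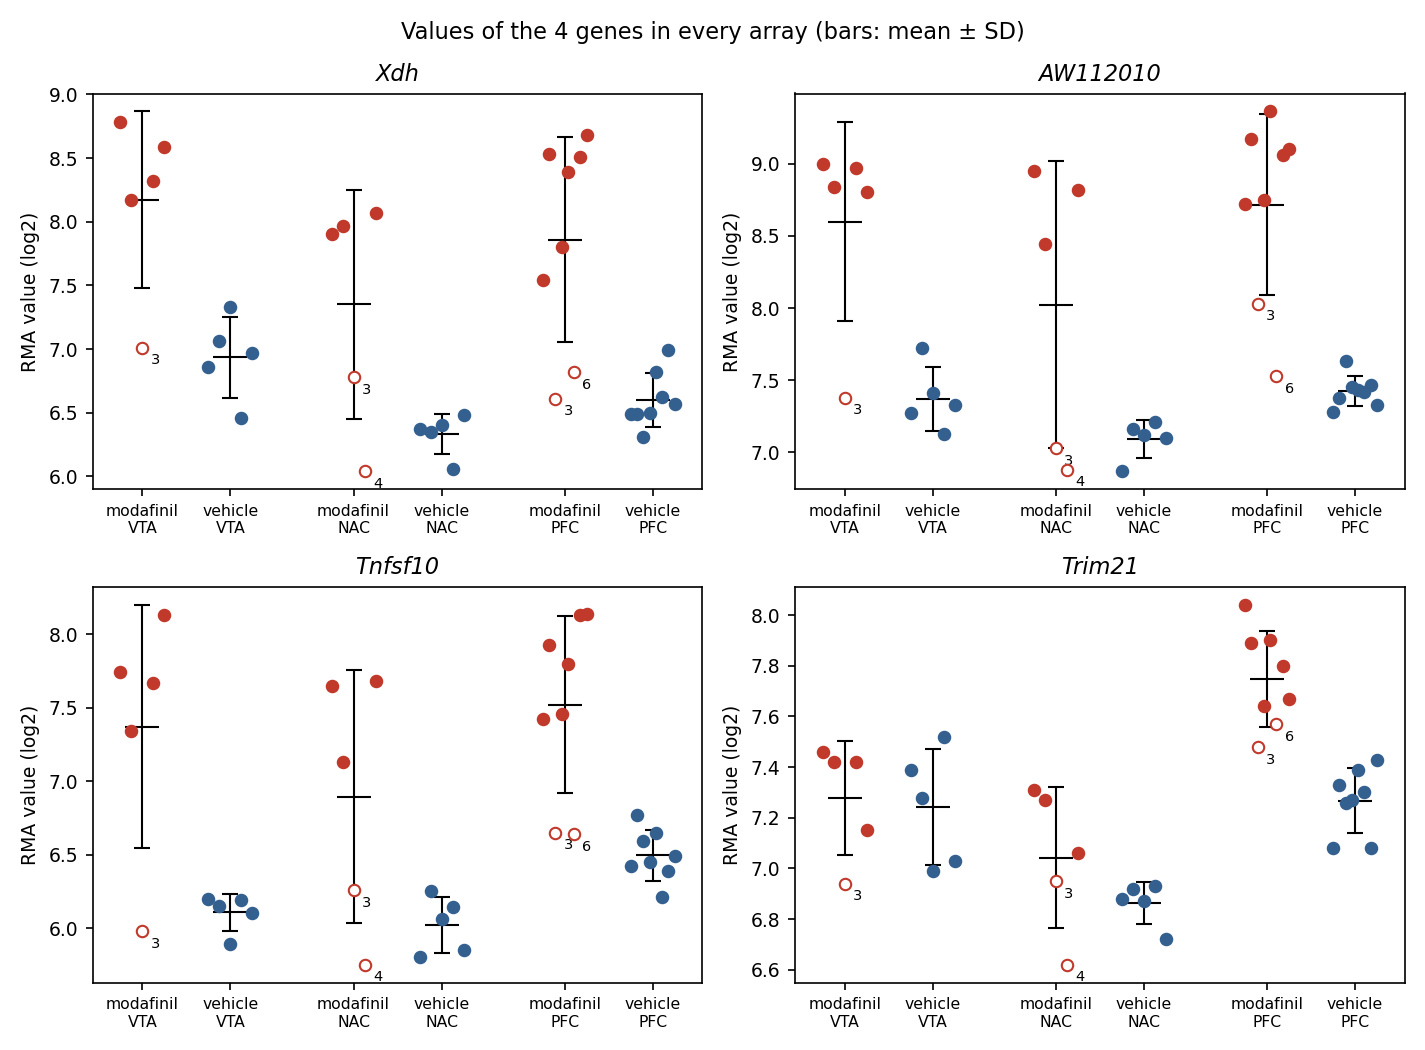
Log2 values of the brightest probe set of each gene (vertical axes) in every array, by region and treatment, modafinil in red and vehicle in blue, with mean and SD as bars. Open red circles are the 5 modafinil arrays that were low for Gbp2, labelled with their array number. For Xdh, AW112010 and Tnfsf10 the open circles lie at or near the vehicle values and the filled red circles above all vehicle arrays, while for Trim21 the groups separate only in PFC (7.48 to 8.04 against 7.08 to 7.43).

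Differences between regions were read as the modafinil change in 1 region minus that in another. For Trim21 the VTA change minus the PFC change was −0.44 (SE 0.16), the PFC change minus the NAC change 0.30 (SE 0.16) and the VTA change minus the NAC change −0.14 (SE 0.17). For Xdh these were −0.02 (SE 0.48), 0.24 (SE 0.48) and 0.22 (SE 0.53). AW112010 gave −0.07 (SE 0.44), 0.36 (SE 0.44) and 0.29 (SE 0.49), and Tnfsf10 0.24 (SE 0.43), 0.15 (SE 0.43) and 0.40 (SE 0.48). For Xdh, AW112010 and Tnfsf10 each difference was smaller than its SE.

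**Figure D2:**
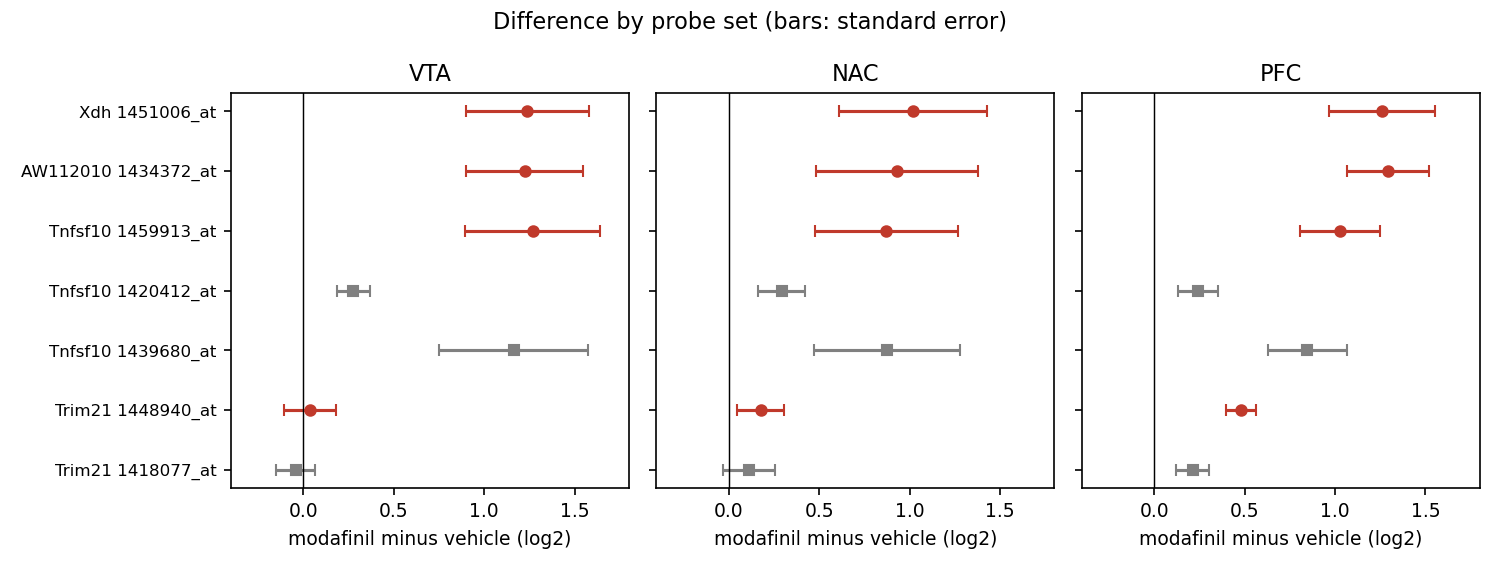
Modafinil minus vehicle (log2, horizontal axes) for the 7 probe sets in VTA, NAC and PFC, with bars of 1 standard error, the brightest probe set of each gene as red circles and the others as grey squares. Xdh, AW112010 and 2 of the 3 Tnfsf10 probe sets lie between 0.85 and 1.29, the dim Tnfsf10 probe set near 0.24 to 0.29, and both Trim21 probe sets between −0.04 and 0.48.

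In a fit of all 36 arrays with a term for region, the difference was 1.19 for Xdh (SE 0.18), 1.17 for AW112010 (SE 0.17), 1.05 for Tnfsf10 (SE 0.16) and 0.27 for Trim21 (SE 0.068). In limma fits over all probe sets whose mean was at or above the 40th percentile (27022 in every fit), with p-values adjusted by the Benjamini-Hochberg method and a threshold of 0.05, the background of probe sets called in either direction was 0.259% in VTA, 0% in NAC and 0.0518% in PFC, and 0.84% over the regions together. At an unadjusted p under 0.05 the counts over all probe sets were 5695, 874, 3181 and 4479. The 4 brightest member probe sets all passed the filter, and since the choice of members used this contrast no calls are given for them. The background across regions was 120 higher and 107 lower calls, and after quantile normalization 135 higher and 33 lower. Every modafinil PFC array lay above every vehicle PFC array for 5 of 27022 probe sets (0.0185%), and the brightest Trim21 probe set was 1 of them. This is no test of Trim21, since the choice of members used this contrast, and its other probe set overlapped in PFC.

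The spread between arrays differed by treatment for the members other than Trim21. The SD within groups was 0.81 in modafinil and 0.24 in vehicle arrays for Xdh, 0.76 and 0.15 for AW112010, and 0.74 and 0.17 for Tnfsf10, against 0.23 and 0.15 for Trim21. Gbp2 itself had 1.43 in modafinil and 0.23 in vehicle arrays. Gbp2 read 9.29, 9.28, 5.92, 9.02 and 9.29 in modafinil VTA arrays 1 to 5, and 9.41, 8.86, 6.72, 5.97 and 8.99 in modafinil NAC arrays 1 to 5. In modafinil PFC arrays 1 to 8 it read 8.91, 10.16, 7.31, 9.28, 9.37, 6.26, 9.60 and 9.52, against 5.79 to 6.83 over the 18 vehicle arrays of all regions.

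The 18 modafinil arrays thus fell into separate clusters on Gbp2, with 5 arrays at or below 7.31, 13 arrays at or above 8.86 and a gap of 1.55 between them. The 5 low arrays were array 3 of VTA, arrays 3 and 4 of NAC, and arrays 3 and 6 of PFC, and the second Gbp2 probe set separated the same arrays. Array 3 was low in each of the 3 regions. The labels do not say whether arrays of 1 number in different regions came from 1 mouse. Without modafinil VTA array 3 the VTA differences were 1.53 for Xdh, 1.53 for AW112010, 1.61 for Tnfsf10 and 0.12 for Trim21. Without modafinil PFC array 3, which also stood apart on striatal markers, the PFC differences were 1.44 for Xdh, 1.39 for AW112010, 1.15 for Tnfsf10 and 0.52 for Trim21.

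Since the modafinil arrays were clustered, the relation to Gbp2 is given over the 13 upper arrays only, on values minus the mean of their region. Pearson's r was 0.61 for Xdh (Spearman's rho 0.56), 0.57 for AW112010 (rho 0.57), 0.54 for Tnfsf10 (rho 0.62) and −0.075 for Trim21 (rho 0.016). Without the 2 arrays farthest from the median of Gbp2 the r of Xdh was 0.33, that of AW112010 0.45, that of Tnfsf10 0.55 and that of Trim21 0.15. Within the 6 upper PFC arrays r was 0.75 for Xdh, 0.58 for AW112010, 0.65 for Tnfsf10 and −0.18 for Trim21. These points share their array's quality and dissection, and the relation to Gbp2 over modafinil arrays was part of the choice of members.

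The relation to Gbp2 within the vehicle arrays was not part of the choice, although vehicle values entered it as the side that modafinil was compared with. Over these 18 arrays AW112010 followed Gbp2 while the others did not pass the test. On values minus the region mean, AW112010 had r = 0.72 and rho = 0.80 with Gbp2 (permutation within region, two-sided, p = 6e-05 and 5e-05, adjusted over the 4 genes p = 0.00024 and 0.0002). Without the 2 arrays farthest from the median of Gbp2, r was 0.67 (adjusted permutation p = 0.00708), and within the 8 vehicle PFC arrays it was 0.90 (exact permutation p = 0.00404, adjusted 0.0162). In these PFC arrays Spearman's rho was 0.81 (exact permutation, adjusted p = 0.0871). VTA and NAC had 5 vehicle arrays each, too few for a correlation of their own. After quantile normalization the r of AW112010 was 0.65 (adjusted permutation p = 0.00344) and rho 0.58 (adjusted permutation p = 0.0628). Gbp2 was dim in vehicle arrays, at a median percentile of 34.3 to 38.9 by region, so the relation runs over low values of Gbp2. The share of all probe sets that followed Gbp2 as closely over these arrays was not computed. Nod1, Ctla2a and Klf4 had a higher r with AW112010 here than Gbp2 had (0.86, 0.86 and 0.84). The vehicle points also share their array's quality and dissection, and the part of cell content in this r was not tested.

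Xdh, Tnfsf10 and Trim21 had r = 0.058, 0.33 and 0.016 with Gbp2 over the vehicle arrays (permutation, adjusted p = 0.948, 0.45 and 0.948) and rho = 0.11, 0.38 and −0.18 (adjusted p = 0.689, 0.316 and 0.675). Without the 2 farthest arrays their r was 0.24, 0.30 and −0.23 (adjusted permutation p = 0.432 for each). Of the 6 pairs among the members over the vehicle arrays, none passed after adjustment over the 6 permutation tests. The pair with the smallest p was Tnfsf10 with Trim21, at r = 0.50 (adjusted p = 0.113) and rho = 0.58 (adjusted p = 0.0576). Xdh and Trim21 had r = −0.58 (adjusted permutation p = 0.113), which was −0.27 without the 2 farthest arrays. The other pairs had r from −0.41 to 0.23. The relation among the modafinil arrays was thus not tested by these, and a p above the threshold does not show absence of a relation.

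**Figure D3:**
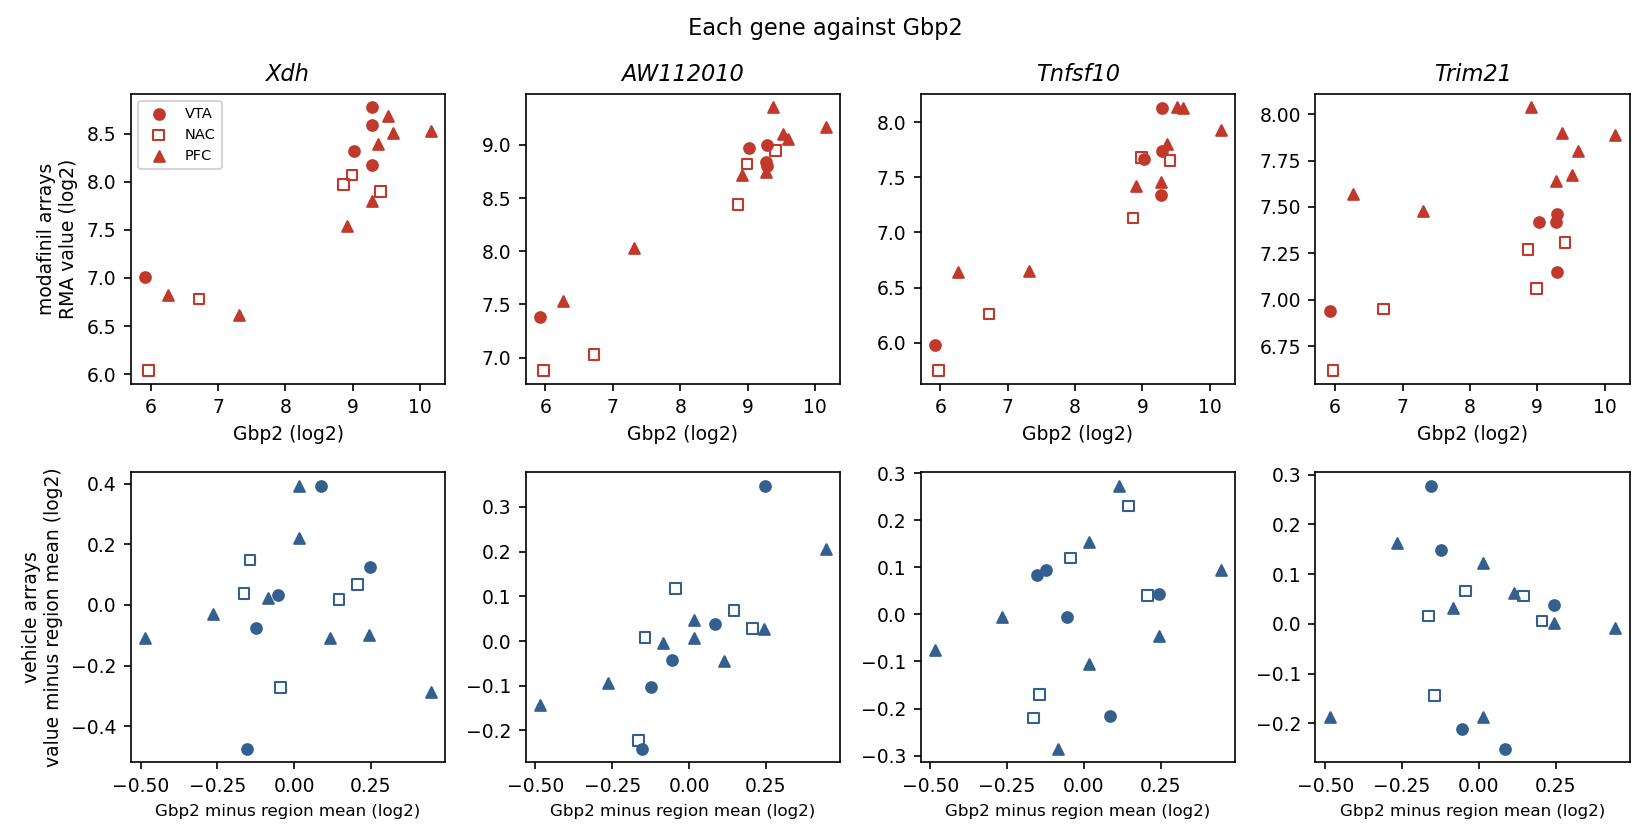
Each gene (vertical axes, log2) against Gbp2 (horizontal axes, log2), with modafinil arrays in red in the upper row as read, and vehicle arrays in blue in the lower row minus the mean of their region. Circles are VTA, open squares NAC and triangles PFC. The upper row shows 5 arrays at or below 7.31 and 13 at or above 8.86 on Gbp2, and in the lower row AW112010 rises with Gbp2 (r = 0.72).

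The contrast of regions among vehicle arrays was not used in the choice either, although the same vehicle values entered it within each region. It asked how the genes are set between NAC and VTA without the drug. Xdh averaged 6.33 ± 0.16 in NAC and 6.94 ± 0.32 in VTA (SD, n = 5 each), a difference of −0.60 (SE 0.14, limma adjusted p = 0.000797), with 4 of 5 NAC arrays below the lowest VTA array. Trim21 averaged 6.86 ± 0.086 in NAC and 7.24 ± 0.23 in VTA, a difference of −0.38 (SE 0.093, limma adjusted p = 0.00185), with all 5 NAC arrays below the lowest VTA array. Its second probe set differed by −0.75 in the fit without the filter (SE 0.090). AW112010 averaged 7.09 ± 0.13 in NAC and 7.37 ± 0.22 in VTA, a difference of −0.28 (SE 0.091, limma adjusted p = 0.012), with 3 of 5 NAC arrays below the lowest VTA array. These 3 genes passed the test with lower values in NAC, where 28.8% of all probe sets did so and 59% passed in either direction. All NAC arrays lay below all VTA arrays for 20.8% of probe sets.

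Tnfsf10 was too dim in vehicle arrays for the filter of that fit. Its main probe set averaged 6.02 ± 0.19 in NAC and 6.11 ± 0.13 in VTA, a difference of −0.08 (SE 0.10, limma adjusted p = 0.496 without the filter). Its probe sets did not give 1 answer, since the second brightest read 5.92 ± 0.18 in NAC and 6.41 ± 0.36 in VTA, a difference of −0.49 (SE 0.13, limma adjusted p = 0.00348 without the filter). As percentiles within the array, the vehicle medians of Xdh were 42.7 in NAC, 53.1 in VTA and 39.2 in PFC. For AW112010 they were 53.9 in NAC, 58.2 in VTA and 52.6 in PFC, for Tnfsf10 37.4 in NAC, 40 in VTA and 38.0 in PFC, and for Trim21 50.7 in NAC, 57.3 in VTA and 51.0 in PFC. VTA thus had the highest vehicle percentile of the 3 regions for the brightest probe set of each gene, without a test against PFC. The dim Tnfsf10 probe set was instead highest in PFC, at 26.7 against 25.5 in VTA and 23.6 in NAC.

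Cell type markers differed between these regions as well. Of 10 tested endothelial markers 7 were lower in NAC and none higher, with a mean level of the list of 8.15 to 8.31 over vehicle NAC arrays and 8.39 to 8.67 over vehicle VTA arrays. Of 10 tested microglia markers 9 were higher in NAC, at 8.48 to 8.69 in vehicle NAC arrays and 7.88 to 8.06 in vehicle VTA arrays. In tissue punches fewer cells of a type and less RNA per cell cannot be told apart, and the part of these cells in the differences of Xdh, AW112010 and Trim21 was not tested. Interferon-induced genes were lower in NAC for 16 of 22 tested and higher for 0 (1 at an unadjusted p under 0.05), among them the immunity-related GTPase gene Irgm1 at −0.57 (SE 0.078, limma adjusted p = 3.74e-06).

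Between modafinil and vehicle arrays the marker levels of microglia, vessel cells, lymphocytes and myeloid blood cells differed by less than Xdh, AW112010 and Tnfsf10 in each region. For Trim21 this did not hold, as its differences of 0.04 in VTA and 0.18 in NAC were below those of some of these lists. The members were chosen for higher values in modafinil mice and the lists were not, and some lists hold dim genes. The order of sizes is therefore a description and says nothing of the part of these cells. Microglia markers differed by 0.059 in VTA, −0.009 in NAC and 0.029 in PFC, with 9, 5 and 7 of 11 genes higher in modafinil arrays, and endothelial markers by −0.039, 0.075 and 0.034, with 5, 9 and 8 of 11 higher. Lymphocyte markers differed by 0.04 in VTA, 0.048 in NAC and 0.125 in PFC, with 11 of 11 higher in PFC. Their level there was 6.01 to 6.24 in modafinil arrays and 5.87 to 6.06 in vehicle arrays, and 6 of the 11 were dim, among them Cd3g, Cd8b1 and Ms4a1. Monocyte and neutrophil markers differed by 0.24 in VTA, 0.27 in NAC and 0.23 in PFC, with 5 of 5, 5 of 5 and 4 of 5 genes higher in modafinil arrays. Their level was 5.54 to 6.05 in modafinil and 5.43 to 5.75 in vehicle VTA arrays, 5.53 to 6.46 and 5.56 to 5.83 in NAC, and 6.12 to 6.67 and 5.96 to 6.53 in PFC. Of these 5 genes S100a8, S100a9 and Plac8 were dim on average. The modafinil arrays low for Gbp2 also had the lowest level of this list among the modafinil arrays of their region. It was 5.535 in VTA array 3, against 5.759 to 6.046 in the others. In NAC it was 5.625 and 5.528 in arrays 3 and 4, against 5.965 to 6.456. In PFC it was 6.173 and 6.118 in arrays 3 and 6, against 6.347 to 6.668. The microglia, endothelial and lymphocyte lists did not order the arrays so in every region. The part of these cells in the members' values was not tested.

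Neuron, myelin and astrocyte markers differed between the treatment groups too. Dopamine neuron markers were lower in modafinil than in vehicle VTA arrays by a mean of 1.09 on the log2 scale, with 0 of 10 higher (7.59 to 9.06 against 8.51 to 10.28), and thalamic markers differed by 0.82, with 7 of 8 higher (9.90 to 10.61 against 8.79 to 10.07). In PFC, oligodendrocyte markers differed by 0.28 with 9 of 9 higher, at 9.46 to 10.63 in modafinil and 9.08 to 10.01 in vehicle arrays. Striatal markers there also differed by 0.28 with 8 of 8 higher, a difference that rested largely on modafinil PFC array 3. That array had a striatal level of 10.90, while the other modafinil PFC arrays had 8.67 to 9.13 and the vehicle PFC arrays 8.72 to 9.07. It was also the highest on the oligodendrocyte list, at 10.63, with the other modafinil PFC arrays at 9.46 to 10.30. Of the genes of these 4 lists none was called by limma in its region. At an unadjusted limma p under 0.05, 8 of 9 tested dopamine neuron markers were lower in VTA and 0 higher. Of 8 thalamic markers there 4 were higher and 1 lower. In PFC 2 of 9 oligodendrocyte and 1 of 7 striatal markers were higher and 0 lower. Over all 27022 probe sets 5695 passed that threshold in VTA and 3181 in PFC. Astrocyte markers differed by −0.225 in VTA with 2 of 8 higher, at 9.94 to 10.05 in modafinil and 10.07 to 10.46 in vehicle arrays. There 3 of 8 were lower and 0 higher at an unadjusted limma p under 0.05, and 0 were called. In NAC 5 of 8 were higher and in PFC 1 of 8. Across the regions limma called 1 of 8 astrocyte markers lower and 0 higher, against 0.84% of all probe sets called. The part of these cells in the differences of Xdh, AW112010, Tnfsf10 and Trim21 was not tested.

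Among genes that interferons induce, other than the 4, those tested had higher values across the regions in modafinil arrays, and most were called. Of 36 listed genes 32 had a probe set and 27 passed the filter. Of these, 27 had a positive difference, 23 were called higher and 0 lower by limma, and the median difference was 0.64, against −0.027 for all probe sets tested, of which 34.7% were positive and 0.444% were called higher. The filter took the mean over modafinil and vehicle arrays together, so a gene could pass through high modafinil values alone. In the fit of vehicle arrays 22 of the list passed. The counts among filtered genes are thus partly set by the filter, and without it 24 were called. Gbp2 rose by 2.32 (SE 0.31) and is given without a p, since the choice of members named it, although it is counted among the 23. The immunity-related GTPase gene Igtp rose by 1.61 (SE 0.21, limma adjusted p = 4.2e-05) and the guanylate-binding protein gene Gbp3 by 1.18 (SE 0.16, same adjusted p). The 4 that were not called were Ifit2 at 0.19, Oas2 at 0.10, the RNA sensor gene Ddx58 at 0.10 and the immunoproteasome gene Psmb10 at 0.13 (adjusted p from 0.154 to 0.311). The title of the series names genes regulated by interferon gamma, so the list's direction has no independent support here. The members' difference of 1.05 to 1.19 for Xdh, AW112010 and Tnfsf10 lay above the median of that list, and that of Trim21, 0.27, below it.

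Counts in single regions were small and rested on single arrays. Here too the filter took in the modafinil arrays, so genes could pass through them. Without the filter limma called 0 of the interferon-induced list in VTA and 5 in PFC. In VTA 27 of 27 tested interferon-induced genes had positive differences and 1 was called, the immunoproteasome gene Psmb9 (1.01, SE 0.18, limma adjusted p = 0.0497). Without modafinil VTA array 3 it was 16, and it was 0 without any other single VTA array. In NAC 25 of 25 were positive and limma called 0, where 17 had an unadjusted p under 0.05. In PFC 27 of 27 were positive and 4 were called, namely the peptide transporter gene Tap1 (0.86, SE 0.14), Irgm2 (1.60, SE 0.27), Gbp2 (2.42, SE 0.42) and Gbp3 (1.19, SE 0.21), with limma adjusted p from 0.0327 to 0.0371. The call of Gbp2 is a description only, since the choice of members named that gene. The PFC count was 13 without modafinil PFC array 3, 15 without modafinil PFC array 6, 2 without vehicle PFC array 4 and 0 without any other single PFC array.

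Upstream of these genes, 4 of 17 tested receptors, kinases and transcription factors of interferon signalling were called higher across the regions and 0 lower. These were the transcription factor genes Irf7 (0.41, SE 0.080, limma adjusted p = 0.00411), Irf1 (0.41, SE 0.083, adjusted p = 0.00692), Stat2 (0.25, SE 0.052, adjusted p = 0.00911) and Irf9 (0.18, SE 0.045, adjusted p = 0.0379). Irf9 was not called when any 1 of 18 of the 36 arrays was left out (highest adjusted p = 0.0695), while the other 3 were called without each array in turn. The receptor and kinase genes named by the same rule had small differences in both directions that were not called. They were −0.08 for Ifnar1, −0.05 for Jak1, −0.06 for Ifngr2, 0.07 for Tyk2, 0.02 for Ifnar2 and 0.01 for Jak2. The median of the 17 was 0.007. In VTA the called gene was Stat2 (0.47, SE 0.075, limma adjusted p = 0.0454), and in PFC it was Irf7 (0.43, SE 0.071, limma adjusted p = 0.0297). Leaving out 1 array, Stat2 was called in VTA without modafinil array 3 or vehicle array 5, and Irf7 in PFC without modafinil array 3 or 6 or vehicle array 2 or 4, and neither was called without any other array of its region.

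The lists around the members' own pathways are set beside a background of 0.84% of all probe sets called across the regions, at which a list of this size would hold few calls or none. Around TRAIL, 0 of 13 tested death receptor, adaptor, caspase and inhibitor genes were called across the regions (limma, median 0.026). At an unadjusted p under 0.05, 1 was higher and 2 lower. Cflar, which encodes the inhibitor c-FLIP, differed by 0.14 (SE 0.060, limma adjusted p = 0.248), and Diablo, which encodes a mitochondrial antagonist of apoptosis inhibitors, by −0.10 (SE 0.031, limma adjusted p = 0.0933). Around Xdh, 0 of 16 tested genes of purine breakdown and the molybdenum cofactor were called (limma, median −0.003), with 2 higher and 5 lower at an unadjusted p under 0.05. After quantile normalization or without modafinil PFC array 3 that count of calls was 1. The urate transporter gene Abcg2 differed by 0.16 (SE 0.046, limma adjusted p = 0.0833), and the adenosine transporter gene Slc29a1 by 0.20 (SE 0.062, limma adjusted p = 0.109). Around Trim21, 2 of 20 tested ubiquitin enzyme, autoantigen, antibody receptor and TRIM genes were called higher and 0 lower (median −0.004). These were Trim30a (0.51, SE 0.10, limma adjusted p = 0.00658) and Trim34a (0.37, SE 0.089, limma adjusted p = 0.0344), both TRIM genes known to respond to interferon. Trim34a was not called (highest adjusted p = 0.0652) without modafinil array 1, 4 or 5 of VTA, 1 or 5 of NAC or 1, 2, 5 or 8 of PFC, nor without vehicle array 5 of VTA, 5 of NAC or 1, 6, 7 or 8 of PFC, and Trim30a was called without each array in turn.

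**Figure D4:**
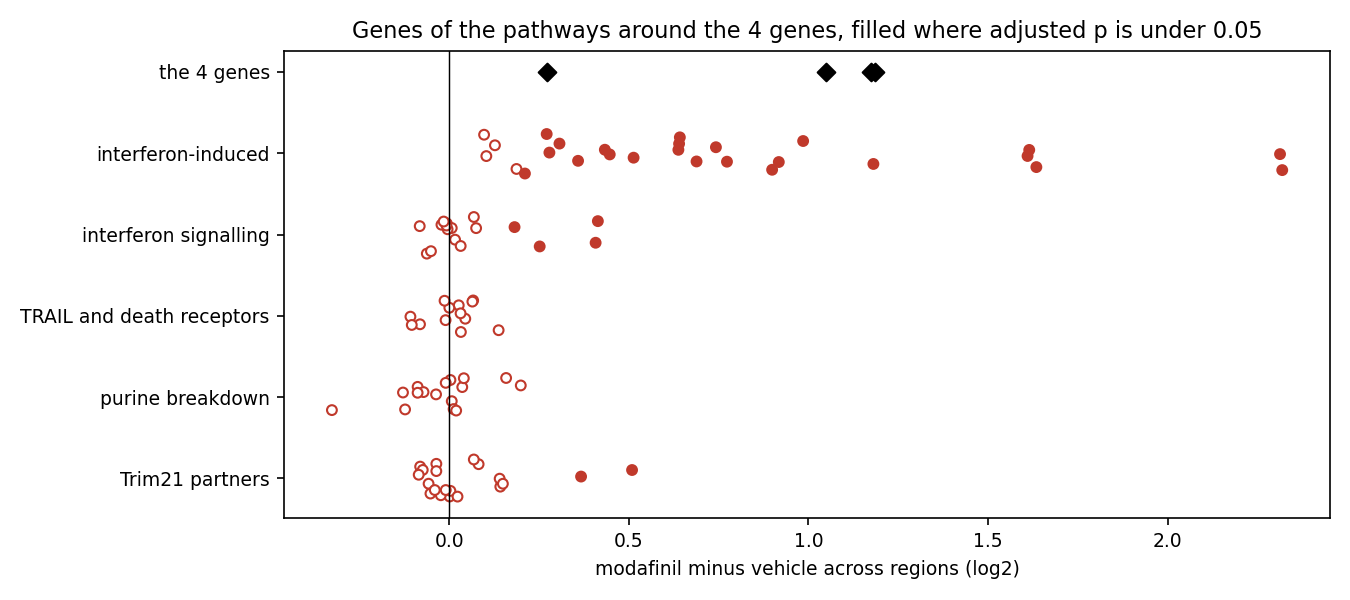
Modafinil minus vehicle across the regions (log2, horizontal axis) for the 4 genes (black diamonds) and for the tested genes of 5 lists (circles, filled where the limma adjusted p was under 0.05). Interferon-induced genes lie to the right of 0 with 23 of 27 filled, interferon signalling has 4 of 17 filled, TRAIL and death receptors 0 of 13, purine breakdown 0 of 16 and Trim21 partners 2 of 20.

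Genes were ranked by Pearson's r with each member, first over all 36 arrays after subtracting the mean of each region and treatment. These r take in both clusters of modafinil arrays and describe mainly which genes were low in the same 5. Nearest to Xdh were Cd274, which encodes the ligand PD-L1 (r = 0.92), Samhd1, which encodes a nucleotide-degrading restriction factor (0.91), Gbp6 (0.91) and Psmb8 (0.91). Nearest to AW112010 were Gbp2 (0.96), Irgm2 (0.96), Gbp7 (0.95) and Iigp1 (0.95), and nearest to Tnfsf10 were Ifi47 (0.94), Igtp (0.93), Iigp1 (0.93) and Gbp7 (0.93). All of these are genes known to be induced by interferon. The nearest to Trim21 had lower values, with Cc2d1b (0.74), Stom (0.73), Tapbp (0.72) and 9530082P21Rik (0.72), of which Tapbp encodes tapasin, a chaperone of class I antigen loading.

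Over the 18 vehicle arrays alone, minus the region mean, the nearest genes were others. They were Trip12 (0.90), Tmem41b (0.84) and Siae (0.84) for Xdh, and Nod1 (0.86), Ctla2a (0.86) and Klf4 (0.84) for AW112010. For Tnfsf10 they were the interferon regulatory factor gene Irf1 (0.79), Slc13a2 (0.79) and C1qtnf1 (0.79), and for Trim21 Cdk12 (0.79), Pcsk5 (0.78) and Cc2d1b (0.78). Cc2d1b was named for Trim21 in both rankings. These r are the highest among all the genes ranked and rest on few arrays and are given as a description.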

How the data were processed

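Per the submitters' processing notes the authors computed the values with RMA, and the deposited table holds log2 values of 45101 probe sets on 36 arrays. No version of RMA is given there. Of these probe sets 64 controls were left out, 34945 had 1 gene symbol, 932 several and 9160 none, and 34741 symbols were updated through Entrez identifiers. The PFC arrays lie on a higher scale, so no level was tested between PFC and another region.

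The members and gene lists were chosen with earlier results of these data known. Each gene was read from its probe set of highest mean over all arrays. Linear models were fitted with limma (version 3.58.1, R 4.3.3; lmFit, eBayes) to probe sets at or above the 40th percentile of the mean over the arrays of the fit and Benjamini-Hochberg adjustment. NAC and VTA were compared in a fit of all 18 vehicle arrays. Correlations used 100000 permutations within region, or all of them in PFC. A correlation over all 18 modafinil arrays had been planned. It was replaced by one over 13 arrays after their clusters on Gbp2 were seen. The scripts were tested on simulated data.

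Genes named are the members, Gbp2, the 4 nearest genes per member over all arrays and 3 over vehicle arrays, and of each pathway list up to 3 genes per direction by smallest p, or all of a kind counted 5 or fewer. Not every gene so chosen is printed. Alternatives were quantile normalization, no filter, a stricter filter at the 60th percentile, trend and robust eBayes, replicate blocks, the other probe sets, group medians and leaving out each array. The red blood cell and astrocyte lists differed by −0.115 and −0.225 in VTA, 0.031 and 0.033 in NAC, and −0.016 and −0.08 in PFC. Precision is limited by the number of arrays. Raw probe intensities and behaviour were not used here.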

Additional observations from a re-analysis of the deposited data

Results flagged for a closer look

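In 2 of the 24 groups of arrays examined, the lowest array of a member lay far from the others by Dixon's test. Chance gives about 1 in 20, a rate that does not apply to the modafinil arrays, since their values entered the choice of the genes. AW112010 read 7.38 in modafinil VTA array 3, with the nearest other modafinil VTA array at 8.80. That array was also the lowest of its group for Xdh, Tnfsf10 and Trim21. Trim21 read 6.72 in vehicle NAC array 5, with the nearest other vehicle NAC array at 6.87.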

How the results depend on the processing

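The members' differences kept their direction and stayed within the spread between arrays under quantile normalization, the mean of all probe sets, group medians and replicate blocks, except that Trim21 in VTA lay near 0 throughout (−0.0021 with the mean of both probe sets). Quantile normalization moved the median of the arrays by 0.225 in VTA, 0.151 in NAC and −0.231 in PFC. Tnfsf10, NAC minus VTA, was −0.08 and became −0.49 with its second brightest probe set. Its r with Gbp2 over the 13 upper modafinil arrays was 0.54 and became 0.88 with the mean of all probe sets of each gene. Over the vehicle arrays its r with Gbp2 was 0.33 and changed sign to −0.12 with that mean, and neither passed the permutation test. The cause of these changes was not tested.

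Leaving out 1 array at a time, the modafinil minus vehicle difference ran in VTA, NAC, PFC and across regions from 1.09 to 1.53, 0.84 to 1.35, 1.14 to 1.44 and 1.13 to 1.28 for Xdh, from 1.12 to 1.53, 0.70 to 1.22, 1.20 to 1.46 and 1.12 to 1.25 for AW112010, from 1.08 to 1.61, 0.67 to 1.16, 0.94 to 1.15 and 1.00 to 1.13 for Tnfsf10, and from −0.02 to 0.12, 0.11 to 0.28, 0.44 to 0.52 and 0.25 to 0.30 for Trim21. NAC minus VTA ran from −0.72 to −0.51 for Xdh, −0.34 to −0.20 for AW112010 and −0.44 to −0.31 for Trim21. The vehicle r with Gbp2 ran from 0.66 to 0.75 for AW112010 (adjusted permutation p from 8e-05 to 0.00244), −0.066 to 0.30 for Xdh, 0.28 to 0.40 for Tnfsf10 and −0.23 to 0.14 for Trim21. Over the 13 upper modafinil arrays it ran from 0.36 to 0.70 for Xdh, 0.40 to 0.74 for AW112010, 0.38 to 0.65 for Tnfsf10 and −0.29 to 0.34 for Trim21.

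Arrays of 1 number did not deviate together in every pair (correlations between treatments of −0.18 to 0.20 for VTA, −0.52 to 0.16 for NAC and −0.22 to 0.26 for PFC; between modafinil arrays −0.001 to 0.252 for NAC with VTA, −0.021 to 0.202 for PFC with VTA and −0.063 to 0.321 for PFC with NAC, with 3, 3 and 2 of 5 closest to their own number; between vehicle arrays 0.016 to 0.249, 0.028 to 0.097 and −0.119 to 0.137, with 2, 1 and 2 of 5), so the numbers are not taken as pairs. With a replicate block NAC minus VTA was −0.60 for Xdh, −0.28 for AW112010 and −0.38 for Trim21 (limma adjusted p = 0.000761, 0.0164 and 0.00442). For modafinil minus vehicle the block instead joined the modafinil and vehicle arrays of 1 number within a region. It gave 17 interferon-induced and 1 Trim21 partner gene called across regions, and 0 in each single region. No fit across regions joined arrays of 1 number and treatment from different regions. The p-values across regions therefore make no allowance for mice that may have given arrays in several regions.

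Probe sets called were 70 in VTA (0 with no filter or the replicate block, 262 with quantile normalization, 291 with the stricter filter, 241 with trend, 0 to 172 leaving out 1 array), 14 in PFC (17, 0, 13, 4, 0, and 0 to 62), 227 across regions (225, 122, 168, 140, 224, and 145 to 389) and 0 in NAC (0 under each setting, and 0 to 1). The interferon-induced list gave 20 to 24 calls across regions with quantile normalization, no filter, trend and robust eBayes, and leaving out 1 array; the stricter filter was not run for the lists. Dim probe sets of Tnfsf10 and Trim21 limit what their second readings show.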
